A study of Rattus norvegicus with 36 samples.

Results

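Rats raised without vitamin A and then given retinyl palmitate were compared with vitamin A sufficient rats given the same injections, to see which liver transcripts still differed by diet. Members were the 18 arrays, of 36 in the series, whose titles name the retinyl palmitate injection (VITA), 9 from the vitamin A deficient (VAD) diet and 9 from the vitamin A sufficient (VAS) diet. All rats were male Wistar rats and each gave 1 liver array. Each diet held 4 rats with a sham operation and 5 rats with bile duct ligation (BDL), which blocks bile outflow, and all 18 received daily intraperitoneal retinyl palmitate. The 18 other rats had the same diets and operations and received daily vehicle injections. They served as the background in which the diet difference had not been treated. The labels call the arrays biological replicates. The labels used here state no dose, diet length or treatment time, so whether the VITA rats had regained full vitamin A stores cannot be read from them.

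Vitamin A is taken up by the liver, esterified to retinyl esters such as retinyl palmitate and stored in stellate cells. Retinol is oxidised to retinoic acid, which binds the retinoic acid receptors and switches on target genes. The CYP26 enzymes break retinoic acid down, and Cyp26a1 is itself a classical target that follows retinoic acid in liver. Rat liver also has a strong male or female pattern of cytochrome P450 expression set by the rhythm of growth hormone.

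The arrays were Illumina RatRef BeadChips, and every level given here is a background-corrected, quantile-normalised log2 intensity. A difference is VAD minus VAS on that scale, so a negative value means lower in rats from the deficient diet. The fit was made with limma on 36 arrays and 9314 genes, with sham and BDL differences averaged by rat number (operation as a block). "Called" means a two-sided limma p, adjusted over all 9314 genes by Benjamini and Hochberg, under 0.05. On the 18 VITA arrays, 31.2% to 37.6% of probes were detected, and 5 of 5 defining liver genes measured (Alb, Ttr, Tf, Serpina1 and Ahsg) were detected on every one at log2 14.07 to 15.15. The number of arrays limits the precision, and within-group correlations ran from 0.9437 to 0.9841.

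Principal components of the VITA arrays separated the operations first (44.3% of the variance) and slide 3 from slides 1 and 2 second (11.7%). VAD BDL VITA replicate 5, the 1 array of its group on slide 3, stood apart on the third component (8.83%), at 40.8 against -19.2 to 9.84 for the others. Slides 1, 2 and 3 held 3, 4 and 2 VAD arrays and 2, 3 and 4 VAS arrays, and slide 1 held no VAS BDL VITA array. The called genes, the main retinoid, sex-typed and matrix genes and the range of the list medians are therefore also given with slide as a block and without replicate 5.

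**Figure D1:**
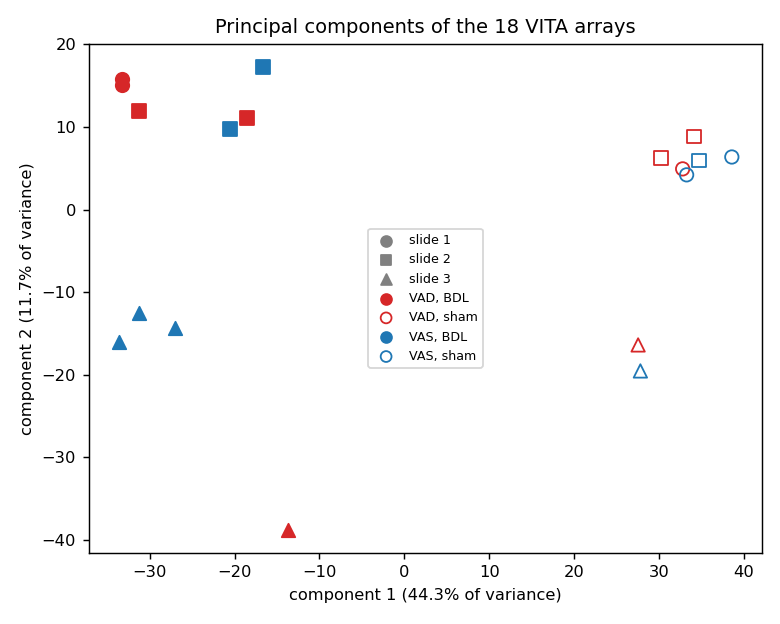
Scores of the 18 VITA arrays on the first principal component (x axis, 44.3% of the variance) and the second (y axis, 11.7%), with colour for diet, fill for operation and marker shape for slide. The operations separate along the x axis, slide 3 lies low on the y axis, and the diets do not form separate clusters.

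Few genes passed the test between the diets once both groups had received retinyl palmitate. Of 9314 genes, 2 were called (0.0215%), both lower in VAD rats, LOC310926 and Prkce. At an unadjusted p under 0.05 there were 877 genes (9.42%), 399 higher and 478 lower. The middle gene differed by 0.12 on the log2 scale in size, 95% of genes by less than 0.38, and 10 genes reached 2-fold at any p. The half-width of the 95% interval was 0.29 for the middle gene, with no adjustment for the 9314 genes. Differences of that size and larger could be present without a call. Cyp2c12 at 0.96 and Cyp26b1 at -0.95, for example, were not called (limma adjusted p = 0.2 and 0.097).

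Among rats given vehicle, the same comparison called 2126 genes (22.8%), 1151 higher and 975 lower in VAD rats, 365 of them at least 2-fold. The VITA and vehicle comparisons share no array, but they share the slides, the normalisation and the estimate of spread. The difference between the diet effects of VITA and vehicle rats was itself tested, and 896 genes were called for it (9.62%). In the plot of both diet differences per gene, the genes called in vehicle rats spread far along the vehicle axis and little along the VITA axis.

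**Figure D2:**
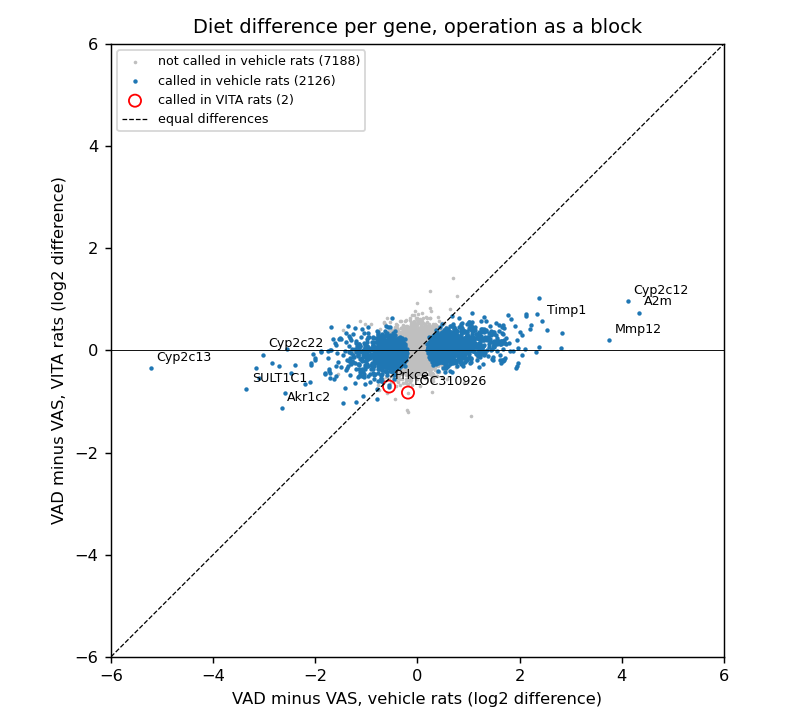
Diet difference of each of 9314 genes in vehicle rats (x axis) and in VITA rats (y axis), both as log2 VAD minus VAS with operation as a block. The 2126 genes called in vehicle rats are blue, the 2 called in VITA rats are ringed in red, and the dashed line marks equal differences, from which the blue points depart towards 0 on the y axis.

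LOC310926 was the gene with the smallest p. Its name is the one in the array file, and no entry in the reference name table matched it, so no role is given. In sham VITA rats its levels were 13.20, 13.21, 13.13 and 13.12 on the VAS diet and 12.25, 12.69, 12.99 and 12.84 on the VAD diet. After ligation they were 12.99, 13, 13.15, 13.05 and 13.15 on the VAS diet and 12.53, 11.54, 11.32, 12.55 and 11.84 on the VAD diet. Every VAD rat lay below every VAS rat of its operation, and the VAD BDL rats also spread more widely than any other VITA group. LOC310926 was 1.77-fold lower in VAD rats (log2 -0.83, SE 0.13, limma adjusted p = 0.0018), with -0.47 in sham and -1.11 in BDL rats. The difference between the operations was not called (-0.64, limma adjusted p = 0.85). In vehicle rats the diet difference of LOC310926 was -0.18 (95% interval -0.44 to 0.07, limma adjusted p = 0.32), and the VITA difference departed from it (-0.64, limma adjusted p = 0.017).

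The LOC310926 difference was -0.95 within slide 1 (sham rats only), -0.75 within slide 2 and -0.87 within slide 3. Without VAD BDL VITA replicate 5 its limma adjusted p was 0.0085, and with slide as a block it was 0.005. It was called in 18 of 18 fits that each left out 1 VITA array. It was not called in a fit to the 18 VITA arrays alone (0.22), without slide 1 (0.098), without slide 2 (0.11) or without slide 3 (0.32).

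Prkce encodes protein kinase C epsilon, a kinase activated by diacylglycerol. In sham VITA rats its levels were 5.33, 5.15, 5.26 and 5.99 on the VAS diet and 4.87, 4.78, 4.72 and 4.77 on the VAD diet. Ligated VITA rats had 5.92, 5.66, 6.17, 5.76 and 5.86 on the VAS diet and 5.14, 5.14, 4.84, 5.27 and 5.18 on the VAD diet. The diets did not overlap within either operation, but the signal was dim throughout. Prkce was above background on 5 of 9 VAS VITA arrays and on 0 of 9 from the VAD diet, so only a bound can be given for the VAD level. The measured difference was log2 -0.71 (SE 0.13, limma adjusted p = 0.037). The VAS mean as measured, undetected arrays included, lay 1.09-fold above the detection floor of the VAD arrays. That is no strict bound, because not every VAS level was above background. The floor on each array was the lowest level among detected probes, or the Prkce level where that was higher.

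The vehicle rats gave a Prkce difference of -0.55 (limma adjusted p = 0.0022), with signal above background in 3 of 9 VAS and 1 of 9 VAD rats. The difference between the VITA and vehicle values was -0.15 (limma adjusted p = 0.68, 95% interval -0.54 to 0.23). In 11 of 18 fits that left out 1 array the Prkce call was lost, with adjusted p of 0.052 to 0.14. These were the fits without VAD BDL VITA replicate 2 (0.082), 3 (0.14) or 4 (0.052), without VAD sham VITA replicate 1 (0.059), 2 (0.077), 3 (0.062) or 4 (0.064), without VAS BDL VITA replicate 3 (0.073), 4 (0.056) or 5 (0.085), and without VAS sham VITA replicate 4 (0.056). With slide as a block its adjusted p was 0.055, and in the authors' deposited value table the difference was -0.12 (0.098).

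**Figure D3:**
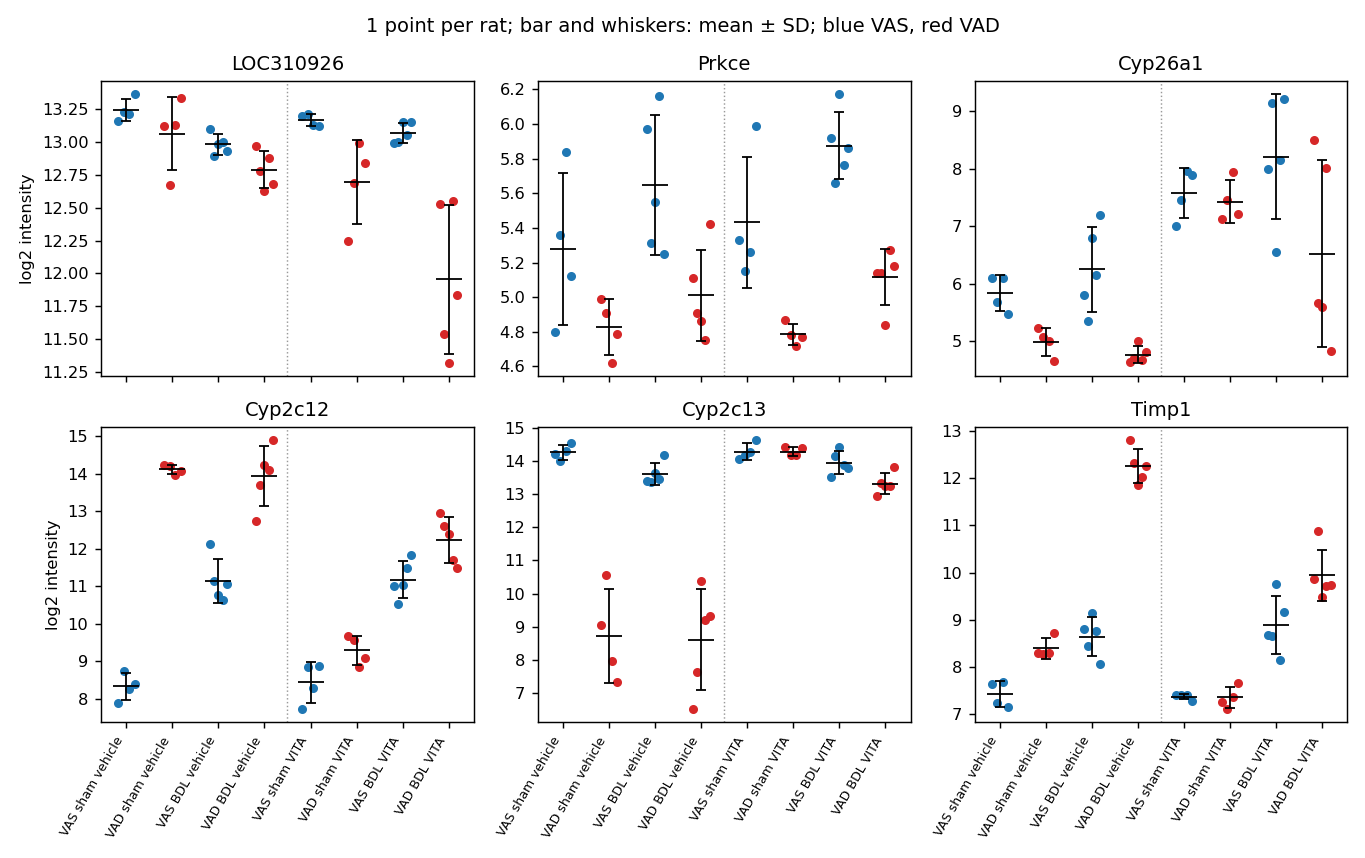
Log2 intensity of LOC310926, Prkce, Cyp26a1, Cyp2c12, Cyp2c13 and Timp1 in each of 36 rats (y axis) for the 8 groups (x axis), with VAS rats in blue and VAD rats in red and the mean ± SD in black. Vehicle groups stand to the left of the dotted line and VITA groups to the right, where the diets lie closer together for Cyp2c12, Cyp2c13 and Timp1 and apart for LOC310926.

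Taken by operation, 0 genes were called between the diets in sham VITA rats (0%; limma, 342 at an unadjusted p under 0.05) and 3 in BDL VITA rats (0.0322%; 1157 at an unadjusted p under 0.05). The 3 were LOC310926, Gbe1 and Zfhx3, all lower in VAD rats. No gene was called for a diet difference that itself differed between the operations (0 of 9314, 0%; limma, 530 at an unadjusted p under 0.05), so none of the 3 is shown to be limited to BDL.

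Gbe1 encodes the glycogen branching enzyme. In BDL VITA rats its levels were 11.25, 11.34, 10.89, 11.19 and 11.08 on the VAS diet and 10.69, 10.12, 10.54, 10.28 and 9.88 on the VAD diet, with no overlap. The difference was -0.85 (SE 0.15, limma adjusted p = 0.02), against -0.05 (95% interval -0.40 to 0.30) in sham VITA rats, whose groups overlapped. In vehicle rats Gbe1 fell by 1.15 on the log2 scale (limma adjusted p = 3.7e-09), and over both operations the VITA difference was smaller (-0.49, with 0.66 between the diet effects, limma adjusted p = 0.0071).

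Zfhx3 encodes a zinc finger homeobox transcription factor. In BDL VITA rats its levels were 7.99, 7.95, 7.84, 7.74 and 7.50 on the VAS diet and 6.88, 7.0, 7.05, 7.21 and 6.71 on the VAD diet, again with no overlap. The difference was -0.83 (SE 0.16, limma adjusted p = 0.026), and -0.22 in sham VITA rats. In fits that left out 1 BDL VITA array, Gbe1 and Zfhx3 were each called in 4 of 10, and with slide as a block both had an adjusted p of 0.028. Both calls were lost without VAD BDL VITA replicate 2 (adjusted p = 0.065 for both) or 5 (0.1 for both), and without VAS BDL VITA replicate 1 (0.062 for Gbe1 and 0.094 for Zfhx3), 2 (0.065 and 0.071) or 4 (0.064 for both). Gbe1 alone lost its call without VAD BDL VITA replicate 4 (0.051), and Zfhx3 alone without VAS BDL VITA replicate 3 (0.058).

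The count in BDL VITA rats rested on single arrays. It was 27 without VAD BDL VITA replicate 1, 1 without VAD BDL VITA replicate 2 or VAS BDL VITA replicate 4, and 2 to 4 without any other BDL VITA array. LOC310926 was called in BDL VITA rats in 10 of 10 such fits.

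The retinoic acid pathway was examined next because its genes follow the vitamin A supply most directly. Cyp26a1 hydroxylates retinoic acid, and its promoter is shown because the gene is the pathway's classical target. Retinoic acid receptors are known to bind spaced direct repeats. The sequence is the 250 bases before the RefSeq start of the rat gene on the plus strand, chr1:244883572-244883821 of GRCr8, with a direct repeat found by a motif search in capitals.
Cyp26a1: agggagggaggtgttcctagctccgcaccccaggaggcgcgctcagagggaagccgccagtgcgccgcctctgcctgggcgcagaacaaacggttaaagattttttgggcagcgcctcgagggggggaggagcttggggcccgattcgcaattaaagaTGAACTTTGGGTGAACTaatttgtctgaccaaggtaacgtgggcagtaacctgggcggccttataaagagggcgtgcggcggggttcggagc
The motif searched was AGTTCA, any 5 bases and AGTTCA again, on both strands, which on the plus strand can also read TGAACT, any 5 bases and TGAACT. Only these exact letters were counted, and other forms of spaced direct repeat were not searched. The motif lay 92 to 76 bases before the Cyp26a1 start, and 3 of 33469 rat promoters of the same window held it (0.00896%). It was not found in that window of Cyp26b1, Cyp2c22, Cyp2c7 or Prkce, which says only that these letters are absent there.

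Cyp26a1 levels in sham VITA rats were 7.01, 7.46, 7.96 and 7.89 on the VAS diet and 7.12, 7.46, 7.94 and 7.21 on the VAD diet. In BDL VITA rats they were 7.99, 9.15, 6.56, 8.16 and 9.21 on the VAS diet and 8.51, 5.67, 5.6, 8.01 and 4.83 on the VAD diet. The sham groups lay on top of each other, while 3 of the 5 VAD BDL rats were below every other VITA rat and the other 2 were within the VAS range. The diet difference was -1.0 (SE 0.36, 95% interval -1.74 to -0.27) and was not called (limma adjusted p = 0.43). With slide as a block it was -1.07 (0.34), and without VAD BDL VITA replicate 5 it was -0.74 (0.5). It was -0.15 in sham and -1.69 in BDL VITA rats, and the difference between them was not called (-1.54, limma adjusted p = 0.85).

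In vehicle rats, Cyp26a1 ran from 4.65 to 5.24 on the VAD diet (median 4.81) and from 5.35 to 7.19 on the VAS diet (median 6.11), with no overlap. Signal was above background in 6 of 9 VAS and in 0 of 9 VAD vehicle rats (measured log2 -1.21, limma adjusted p = 0.013). The VAS mean as measured, undetected arrays included, lay 1.46-fold above the detection floor of the VAD vehicle arrays, which again is no strict bound. Of the 9 VAD VITA arrays, 7 detected it, and of the 9 VAS VITA arrays, 9 did. The VITA and vehicle differences were 0.20 apart, a difference that was not called (limma adjusted p = 0.85).

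Cyp26b1, the second retinoic acid hydroxylase, had levels of 6.90, 6.07, 7.34 and 5.10 in VAS sham VITA rats and 5.35, 6.01, 4.94 and 5.05 in VAD sham VITA rats. Levels after BDL were 5.81, 5.6, 6.27, 5.03 and 6.30 on the VAS diet and 5.33, 4.65, 4.41, 5.39 and 4.70 on the VAD diet. The groups overlapped within each operation, and Cyp26b1 was above background in 6 of 9 VAS and 1 of 9 VAD rats. Its difference was -0.95 (95% interval -1.39 to -0.52) and was not called (limma adjusted p = 0.097). It was called without VAS sham VITA replicate 4 (0.0042), and it was -1.0 (0.071) with slide as a block and -0.93 (0.16) without VAD BDL VITA replicate 5.

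Of the 23 genes on the list of retinoic acid receptors and responsive genes, 0 were called in VITA rats, and 4 were lower at an unadjusted p under 0.05 (Cyp26a1, Cyp26b1, Cyp2c7 and Nrip1). The list median was -0.08 in VITA rats against -0.22 in vehicle rats, where 9 members were called lower and 1 higher. All genes tested had medians of 0.00 and -0.02 in the same comparisons. The shares of this list were 17.4% at the unadjusted threshold in VITA rats, against 9.42% of all genes, and 43.5% called in vehicle rats, against 22.8%. With 0.0215% of all genes called in VITA rats, 0 called members is near the background for every list described here and is no result about a list. Rarb, a retinoic acid receptor, differed by -0.04 (95% interval -0.28 to 0.20) in VITA rats by its brightest probe and by -0.27 by its other probe. Cyp2c22, a rat P450 that oxidises retinoids, differed by -0.08 (-0.54 to 0.38) in VITA rats and fell by 3.02 on the log2 scale in vehicle rats (limma adjusted p = 7.1e-12).

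The 21 genes of retinol storage, transport and oxidation had a median of -0.02 in VITA rats with 0 called, and -0.20 in vehicle rats with 6 called lower and 1 higher (33.3%, against 22.8% of all genes). Rbp4, the plasma carrier of retinol, differed by 0.08 (95% interval -0.37 to 0.52) in VITA rats. Aldh1a1, which oxidises retinal, differed by -0.30 in VITA rats (limma adjusted p = 0.63) and fell by 0.96 on the log2 scale in vehicle rats (0.00046), with no call for the difference between them (0.15). Adh4, an alcohol dehydrogenase that accepts retinol, differed by 0.46 in VITA rats (0.56) and fell by 0.96 on the log2 scale in vehicle rats (0.0044), and here the difference between the diet effects was called (1.43, 0.0073). These p-values are limma's, adjusted over all genes.

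Sex-typed liver genes were among those with the widest diet differences in vehicle rats. Cyp2c13, a male-predominant P450, ran from 6.54 to 10.57 (median 9.05) in VAD vehicle rats and from 13.36 to 14.54 (median 13.98) in VAS vehicle rats. In VITA rats it ran from 12.94 to 14.41 (median 13.81) on the VAD diet and from 13.52 to 14.62 (median 14.15) on the VAS diet. The vehicle groups were far apart and the VITA groups overlapped. Cyp2c13 was 37.3-fold lower in VAD vehicle rats (log2 -5.22, limma adjusted p = 4.3e-13), while the VITA difference was -0.35 (95% interval -1.04 to 0.35, adjusted p = 0.77). A slide block gave a VITA difference of -0.31 (0.77), and without VAD BDL VITA replicate 5 it was -0.39 (0.72). The difference between the diet effects was 4.87 (limma adjusted p = 1.1e-07).

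Cyp2c12, the female-predominant counterpart, had a positive diet difference after retinyl palmitate that did not pass the test. In sham VITA rats it was 7.73, 8.84, 8.27 and 8.88 on the VAS diet and 9.66, 9.55, 8.85 and 9.07 on the VAD diet. With BDL it was 11, 10.53, 11.02, 11.48 and 11.84 on the VAS diet and 12.96, 12.60, 12.38, 11.69 and 11.49 on the VAD diet. The groups overlapped slightly within each operation. The VITA difference was 0.96 (95% interval 0.47 to 1.45, limma adjusted p = 0.2), against 4.12 (4.6e-14) in vehicle rats, and the gap between them was called (-3.16, 2.1e-07). The Cyp2c12 difference was 1.0 (0.13) with slide as a block and 1.05 (0.16) without VAD BDL VITA replicate 5.

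The 19 female-predominant genes had the highest list median in VITA rats, 0.29, with 0.13 in sham and 0.39 in BDL VITA rats. Of these genes 14 were positive, 0 called and 4 higher at an unadjusted p under 0.05 (Cyp2c12, Sult2a6, Abcc3 and Scd2). The 4 are 21.1% of the list, against 9.42% of all genes, and 49.1% of all genes were positive. Their vehicle median was 0.03, with 3 called higher and 4 lower (36.8%, against 22.8% of all genes). Sult2a6, a hydroxysteroid sulfotransferase, differed by 0.64 in VITA rats (limma adjusted p = 0.2) and 0.25 in vehicle rats (0.29). Sult2a6 differed by 0.957, 0.52 and 0.906 within slides 1 (sham rats only), 2 and 3, and Cyp2c12 by 1.37, 1.133 and 0.102. Abcc3 differed by 0.415, 0.733 and -0.077 and Scd2 by 0.835, 0.51 and -0.29. Scd2 differed by 0.74 in sham and 0.03 in BDL VITA rats. The 25 male-predominant genes had a median of -0.02 in VITA rats with 12 positive (48%, against 49.1% of all genes) and 0 called. In vehicle rats their median was -0.69, with 13 called lower and 2 higher (60% called). Members with an unadjusted p under 0.05 in VITA rats were 12% of the list, near the 9.42% of all genes. They were the lipocalin Obp3 (-0.65), the major urinary protein Mup4l3 (-0.84) and the aldo-keto reductase Akr1c2 (-1.13). Each had a limma adjusted p of 0.48 or more. Their vehicle differences were -2.20, -2.58 and -2.66. In sham and BDL VITA rats Obp3 differed by -1.42 and -0.04, Mup4l3 by -1.15 and -0.59 and Akr1c2 by -1.80 and -0.59. Obp3 was above background on 3 of 5 VAD and 2 of 5 VAS BDL VITA arrays. Within slides 1 (sham rats only), 2 and 3 Obp3 differed by -2.91, -0.06 and -0.45. Mup4l3 differed by -2.69, -0.66 and -0.41 and Akr1c2 by -1.30, -0.66 and -1.44.

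Over all 2126 genes called in vehicle rats, the middle size of the diet difference was 0.56 in vehicle and 0.12 in VITA rats. The VITA difference was smaller in size for 2114 of them (99.4%, against 65.5% of all genes). It was under 50% of the vehicle value for 1909 (89.8%, against 71% of all genes), a count that takes in every gene of opposite sign. The genes were chosen on their vehicle values, so a smaller VITA value is partly built in. For 1818 the 95% interval of the VITA difference lay wholly on the side of the vehicle value towards 0, against 3520 of all 9314 genes. That count takes the vehicle value as fixed, without its own error. The difference between the diet effects was called for 843, against 896 of all 9314 genes (9.62%). Of the 2126, 1378 (64.8%) had the same sign in VITA and vehicle rats, against 3670 of the 7188 genes not called in vehicle rats (51.1%). Among the 365 with at least a 2-fold vehicle difference, 274 (75.1%) had the same sign, and the middle size went from 1.28 in vehicle to 0.20 in VITA rats. Of the 2 genes called in VITA rats, Prkce was also called in vehicle rats, in the same direction.

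**Figure D4:**
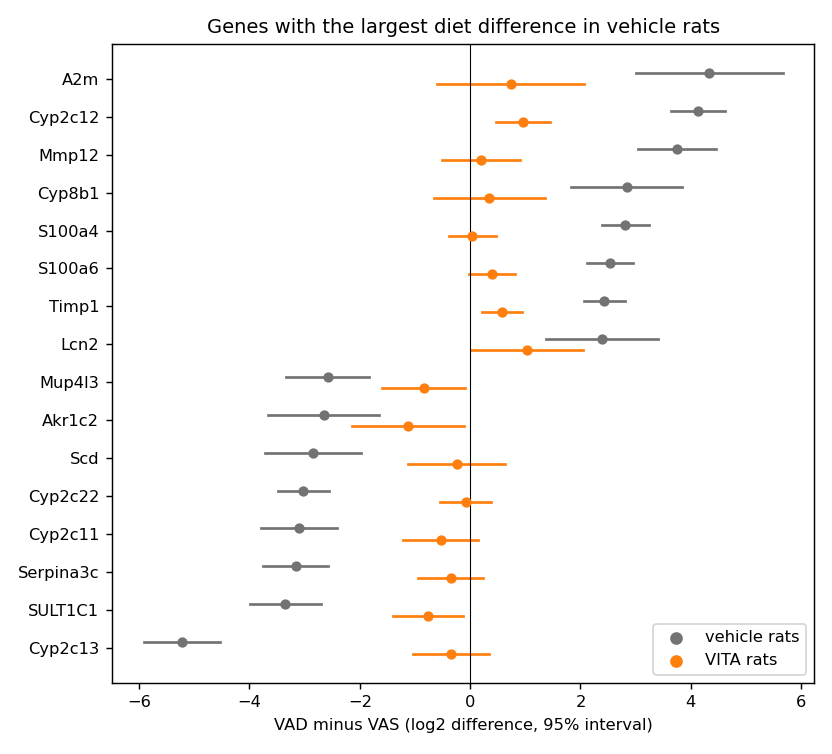
Diet difference (x axis, log2 VAD minus VAS, with 95% intervals) of the 16 genes with the largest called changes in vehicle rats, 8 in each direction, in vehicle rats (grey) and VITA rats (orange). All 16 VITA points lie nearer 0 than the vehicle points, and each has the same sign.

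Markers of the liver's response to injury were among the genes with the widest vehicle differences. Timp1, an inhibitor of matrix proteases, was 7.40, 7.40, 7.39 and 7.28 in VAS sham VITA rats and 7.26, 7.11, 7.36 and 7.66 in VAD sham VITA rats. In BDL VITA rats it was 8.67, 8.66, 9.76, 8.14 and 9.17 on the VAS diet and 9.86, 10.89, 9.49, 9.72 and 9.73 on the VAD diet, with VAD rats mostly higher and 1 VAS rat within their range. The VITA difference of 0.58 (95% interval 0.21 to 0.95) was not called (limma adjusted p = 0.37). It was -0.02 in sham and 1.06 in BDL rats, and over both 0.57 with slide as a block (0.33) or without VAD BDL VITA replicate 5 (0.36). In vehicle rats Timp1 rose by 2.43 on the log2 scale (limma adjusted p = 7.1e-12), and the gap between the diet effects was called (-1.86, 9.8e-06).

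A2m, an acute-phase protease inhibitor, rose by 4.33 on the log2 scale in VAD vehicle rats (limma adjusted p = 5.6e-06) and differed by 0.74 (95% interval -0.59 to 2.07) in VITA rats. Mmp12, the macrophage metalloelastase, rose by 3.75 (7.7e-10) in vehicle rats and differed by 0.20 (-0.50 to 0.91) in VITA rats. It was above background on 0 of 4 VAS sham vehicle arrays, 1 of 4 VAS sham VITA arrays and 1 of 4 VAD sham VITA arrays, so its level there is known only to be low. S100a4, a calcium-binding protein, rose by 2.81 (8e-12) in vehicle rats and differed by 0.04 (-0.39 to 0.47) in VITA rats. For these 3 genes the difference between the diet effects was called (limma adjusted p = 0.01, 1e-05 and 2.1e-07). Lcn2, an acute-phase lipocalin, differed by 1.03 (0.01 to 2.05, adjusted p = 0.52) in VITA rats and rose by 2.39 (0.00049) in vehicle rats, and for it the gap was not called (0.25).

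In bulk liver RNA, fewer cells of a type and less RNA per cell cannot be told apart. The 41 matrix genes had a median of 0.00 in VITA rats with 0 called, against 1.01 in vehicle rats with 32 called higher (78% of the list, against 22.8% of all genes). The VITA median was -0.09 in sham and 0.13 in BDL rats. Col3a1, a fibrillar collagen, differed by 0.49 in VITA rats (limma adjusted p = 0.5), with -0.08 in sham and 0.95 in BDL rats. In vehicle rats Col3a1 rose by 1.59 on the log2 scale (2.5e-06). Col1a1, another fibrillar collagen, differed by -0.02 in VITA rats (95% interval -0.48 to 0.44), with -0.03 in BDL rats. Col1a1 was dim, above background on 2 of 9 VAD and 3 of 9 VAS VITA arrays. The 29 macrophage and Kupffer cell genes had a median of 0.05 in VITA rats with 0 called, against 0.84 in vehicle rats with 23 called higher (79.3%). Lgals3, a galectin of macrophages, differed by 0.19 in VITA rats and rose by 1.5 on the log2 scale in vehicle rats (limma adjusted p = 1.6e-08). Trem2, a macrophage receptor, was not above background on any sham array, so its values of 0.05 in VITA rats and 1.96 in vehicle rats (9.3e-07) average in sham groups not well above background. The 7 class II antigen presentation genes had a median of 0.05 in VITA rats with 0 called, and 1.23 in vehicle rats with 7 called higher. The 21 bile duct and progenitor genes had a median of 0.04 with 0 called, but 7 had an unadjusted p under 0.05 (6 higher and 1 lower), or 33.3% against 9.42% of all genes. That share was 4.76% in sham and 19% in BDL VITA rats, against 3.67% and 12.4% of all genes. Of the 21 genes 11 were positive (52.4%, against 49.1% of all genes). Epcam, an epithelial adhesion molecule, was among the 6 higher, at 0.45 (limma adjusted p = 0.47). Krt19, the bile duct keratin of the panel, differed by 0.31 (95% interval -0.21 to 0.83, limma adjusted p = 0.72).

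Among metabolic lists, 2 lay toward the ends of the range of VITA medians. The 32 genes of the urea cycle and amino acid breakdown had a median of 0.15 in VITA rats with 24 positive and 0 called. Their median was 0.00 in sham VITA rats with 16 positive, and 0.22 in BDL VITA rats with 24 positive. In vehicle rats it was -0.55 with 19 called lower (59.4%, against 22.8% of all genes). The 22 genes of cholesterol synthesis and uptake had a median of -0.16 in VITA rats with 4 positive and 0 called, 0.03 in sham and -0.31 in BDL VITA rats, and -0.12 in vehicle rats with 3 called lower. Arg1, the arginase of the urea cycle, differed by 0.29 in VITA rats (limma adjusted p = 0.46) and -0.17 in vehicle rats (0.31). Hal, which starts histidine breakdown, differed by -0.34 in VITA rats (0.58) and fell by 1.38 on the log2 scale in vehicle rats (1.8e-06). The 34 drug metabolism genes had medians of 0.04 in VITA and -0.43 in vehicle rats, with 0 called in VITA rats and 15 called lower and 2 higher in vehicle rats (50% called). The 27 lipogenic genes had medians of -0.06 and -0.45, with 0 called in VITA rats and 13 called lower and 3 higher in vehicle rats (59.3% called). Scd, the stearoyl-CoA desaturase, differed by -0.25 (95% interval -1.12 to 0.62) in VITA rats and fell by 2.85 in vehicle rats (5.2e-06).

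The 32 cell cycle genes had a median of 0.25 in VITA rats, with 29 positive, 0 called and 4 higher at an unadjusted p under 0.05, and 0.47 in vehicle rats with 15 called higher (46.9%, against 22.8% of all genes). The 4 are 12.5% of the list, near the 9.42% of all genes, while 90.6% of the list and 49.1% of all genes were positive. Ccnb2, a mitotic cyclin, differed by 0.67 in VITA rats (limma adjusted p = 0.44) and rose by 0.68 on the log2 scale in vehicle rats (0.042). Rrm2, a subunit of ribonucleotide reductase, differed by 0.74 in VITA rats (0.48) and rose by 1.07 in vehicle rats (0.015). Within slides 1 (sham rats only), 2 and 3 the VITA difference of Ccnb2 was -0.362, 1.005 and -0.215. For Rrm2 it was -0.078, 1.112 and -0.447, so both genes were positive within slide 2 only. Rrm2 was above background on 5 of 9 VITA arrays of each diet. The 53 ribosomal protein genes had a median of 0.10 with 0 called and 0.26 in vehicle rats with 33 called higher (62.3%). The 27 interferon-stimulated genes had a median of -0.18 with 0 called and -0.38 in vehicle rats with 12 called lower and 2 higher (51.9%). The 14 T and NK cell genes had the lowest VITA median of all lists, -0.181, with 2 positive and 0 called, and -0.07 in vehicle rats. At an unadjusted p under 0.05, 28.6% of them differed in VITA rats (1 higher and 3 lower), against 9.42% of all genes. That share was 0% in sham and 42.9% in BDL VITA rats, against 3.67% and 12.4% of all genes. Across all 41 lists, medians ran from -0.18 to 0.29 in VITA and from -0.69 to 1.23 in vehicle rats, and 35 lists had a smaller median in size in VITA rats. The VITA medians ran from -0.22 to 0.29 with slide as a block, from -0.24 to 0.31 without VAD BDL VITA replicate 5 and from -0.41 to 0.36 without slide 3.

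**Figure D5:**
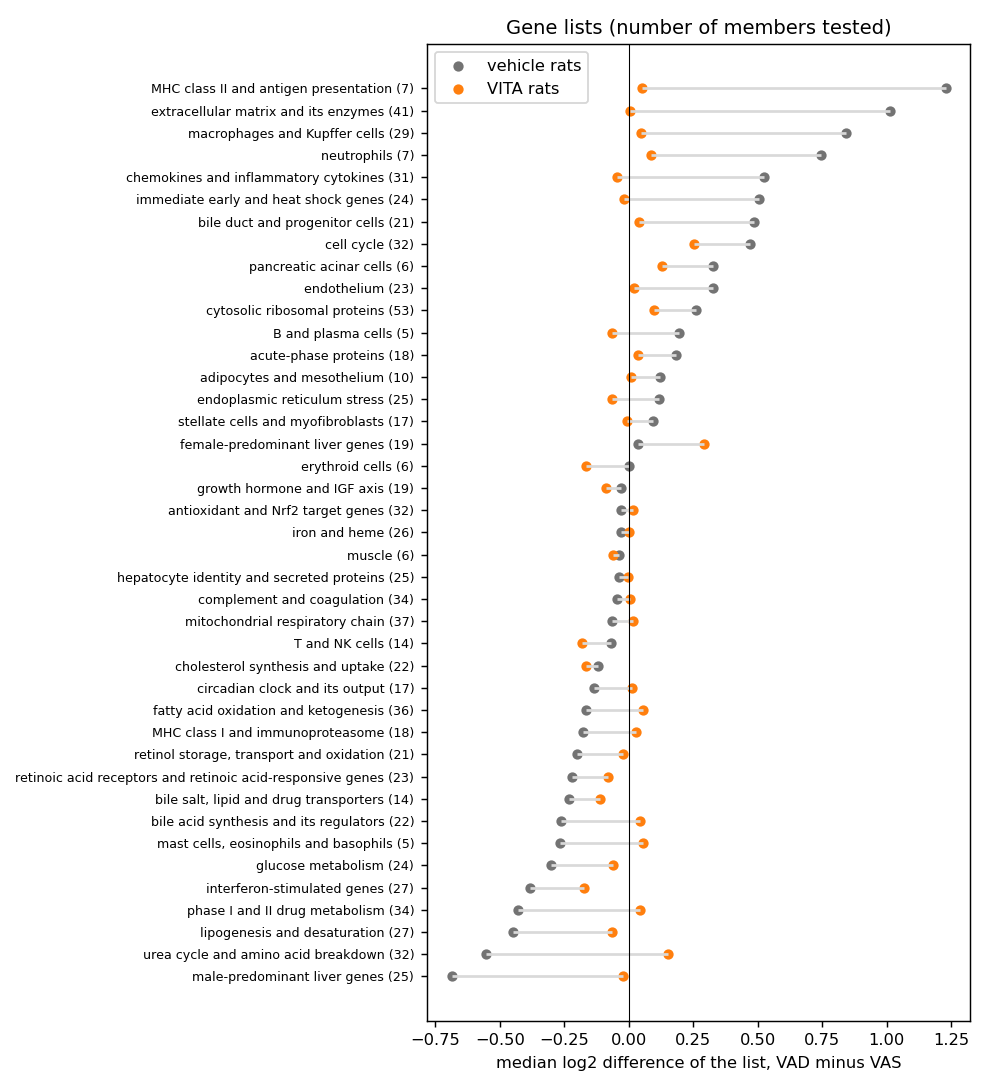
Median diet difference (x axis, log2 VAD minus VAS) of 41 gene lists (y axis, number of members tested in brackets) in vehicle rats (grey) and VITA rats (orange). The orange points lie between -0.18 and 0.29 and the grey points between -0.69 and 1.23.

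Other genes of small p in VITA rats did not pass the test. Among those lower in VAD rats were Sipa1l1 (-0.68, limma adjusted p = 0.055), which acts on the small GTPase Rap, and Rapgef2 (-0.38, 0.068), an exchange factor for Rap. Rbbp8, a DNA end resection factor, differed by -0.67 (0.068), Sorl1, a sorting receptor, by -0.60 (0.18) and Tenm3, a teneurin, by -0.62 (0.2). Sipa1l1 was dim, above background on 6 of 9 VAS and 3 of 9 VAD arrays and on 0 of 4 VAD sham VITA arrays, so its VAD sham level has only an upper bound. Tenm3 was dim too, above background on 8 of 9 VAS and 4 of 9 VAD VITA arrays and on 0 of 4 VAD sham VITA arrays.

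Among those higher in VAD VITA rats was Cd63, a tetraspanin of late endosomes, at 0.62 (limma adjusted p = 0.2), and in BDL VITA rats its diets did not overlap. In vehicle rats Cd63 rose by 1.84 on the log2 scale (1.3e-10). Bco2, which cleaves carotenoids, differed by 0.63 in VITA rats (0.33) and fell by 0.50 in vehicle rats (0.04), and the gap between the diet effects was called (1.13, 0.0032). Bet1l, a Golgi SNARE, differed by 0.57 (0.2) and Selenoh, a selenoprotein, by 0.52 (0.26). Bet1l was dim, above background on 9 of 9 VAD and 3 of 9 VAS VITA arrays. None of the 4 VAS sham VITA arrays detected Bet1l, so its level there has only an upper bound. Ggct, which acts in glutathione breakdown, differed by 0.39 (0.31), Ubtd1 by 0.37 (0.31), the kinesin Kif12 by 0.63 (0.32) and the nucleotide pyrophosphatase Dctpp1 by 0.64 (0.32). Kif12 was above background on 7 of 9 VAD and 6 of 9 VAS VITA arrays.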

How the data were processed

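Liver RNA of 36 rats was hybridised to 1-colour Illumina RatRef BeadChips, with cRNA made by the Illumina TotalPrep kit, per the labels' protocols. Groups and replicate numbers come from the labels. The deposited table holds bead intensity on a linear scale for 22523 probes on each array, not normalised per the file headers. A detection p-value accompanies every deposited value. A further table deposited by the authors holds processed intensity values, running from 183 to 37142 with a median of 212 on every array and the rank order of the raw values, whose scaling and centring are unknown. The sources used here do not give the image processing.

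Background correction and quantile normalisation used limma's neqc (limma 3.58.1, R 4.3.3, offset 16, negative controls inferred from the detection p). Probes with detection p under 0.01 on at least 4 of 36 arrays were kept (9545), and the brightest stood for each of 9314 genes (218 genes had several probes). A linear model of 8 group means (28 residual degrees of freedom) gave each contrast, with sham weighted 4 of 9 and BDL 5 of 9. Python 3.11.15 (pandas 2.3.3, matplotlib 3.10.9) wrote tables and figures. Names were matched to a RefSeq table (74.7% of probes matched), and the promoter is RefSeq's. Whether replicate numbers pair rats was not settled. Of 18 same-number pairs 9 correlated above 0.1 (range -0.18 to 0.41), and pairs of unlike number were not computed for comparison.

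The members, gene lists, tests and alternatives were chosen with earlier results of these data known. Named genes are a panel, the 10 smallest p in each direction of the VITA comparison, and the largest called changes (6 per operation, 4 for interactions, 8 for vehicle), passing over LOC, RGD, MGC and predicted names. LOC310926 was added because few genes were called, and Col3a1, Trem2, Lgals3, Epcam, Ccnb2, Rrm2, Arg1, Hal, Abcc3, Scd2 and others were named after their values were seen. Alternatives were other normalisations, filters and blocks, arrays or slides left out and other weights. The model was tested on simulated data. Some genes that the rule selects are not reported here.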

Additional observations from a re-analysis of the deposited data

Results flagged for a closer look

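In 22 of 268 combinations of a named gene and a VITA group, the highest or lowest rat lay far from the others of its group. Chance alone sets apart about 1 in 20 such groups. Levels are log2 intensities. In VAD BDL VITA replicate 1, Slc10a1 was at 11.64 and Mup4l3 was at 4.74. In VAD BDL VITA replicate 2, Timp1 was at 10.89 and Hal was at 6.45. In VAD BDL VITA replicate 4, Scd was at 10.53. In VAD BDL VITA replicate 5, Rarb was at 9.28. In VAD sham VITA replicate 1, S100a4 was at 5.69 and Trem2 was at 5.45. In VAD sham VITA replicate 3, Akr1c2 was at 7.27. In VAD sham VITA replicate 4, Cyp2c22 was at 14.68 and Cyp8b1 was at 11.87. In VAS BDL VITA replicate 1, Aldh1a1 was at 12.63. In VAS BDL VITA replicate 2, Dctpp1 was at 9.31 and Rrm2 was at 7.87. In VAS BDL VITA replicate 3, Scd was at 11.05 and Ugt2b1 was at 6.88. In VAS BDL VITA replicate 5, Cd74 was at 10.58 and Irf7 was at 8.08. In VAS sham VITA replicate 2, Ugt2b1 was at 7.83. In VAS sham VITA replicate 4, Timp1 was at 7.28, Mmp12 was at 6.14 and Ccl5 was at 8.59.

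For 32 named genes the diet effect in VITA rats differed from that in vehicle rats by limma's test of the difference itself, with an adjusted p under 0.05. The values are the VITA diet difference minus the vehicle diet difference in log2. It was above 0 for Adh4 (1.43), Cyp2c22 (2.94), Cyp2c7 (2.03), Cyp2c11 (2.56), Cyp2c13 (4.87), Obp3 (1.54), Ggct (0.61), Bco2 (1.13), Gbe1 (0.66), Serpina3c (2.81), Scd (2.61), SULT1C1 (2.58), Mup4l3 (1.74) and Hal (1.03). It was below 0 for Cyp2c12 (-3.16), Cyp8b1 (-2.49), Timp1 (-1.86), Col1a1 (-1.11), A2m (-3.59), Cd63 (-1.22), Sipa1l1 (-0.58), Rapgef2 (-0.49), Mmp12 (-3.55), S100a4 (-2.77), S100a6 (-2.14), LOC310926 (-0.64), Col3a1 (-1.1), RT1-Ba (-1.25), Cd74 (-1.18), Trem2 (-1.92), Lgals3 (-1.31) and Scd2 (-1.31). Many of these genes were named because they had the largest vehicle or interaction values, so their sizes are high by choice. For 5 of the 32, LOC310926, Sipa1l1, Rapgef2, Ggct and Bco2, the VITA difference was the larger in size.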

How the results depend on the processing

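The count of genes called between the diets in VITA rats, 2 as reported, was 1 with normexp offset 50, with median scaling, in the authors' value table, with slide as a block, in the fit to the 18 arrays alone and with slide as a block without VAD BDL VITA replicate 5. It was 0 without slide 1, without slide 2 or without slide 3, 3 with no filter, with detection on at least 9 arrays or with operations weighted equally, and 5 with array quality weights. In BDL VITA rats the count of 3 became 5 with normexp, 13 in the authors' table, 6 with slide as a block, 1 with median scaling, without slide 1 or without slide 3, and 0 in the fit to its own arrays, without slide 2 and with slide as a block without VAD BDL VITA replicate 5. In sham VITA rats it was 1 with array quality weights. With replicate number as a block, although pairing by number was not established, the counts were 1 over both operations and 1 in BDL VITA rats. Leaving out 1 array at a time gave 1 to 6 genes over both operations (6 without VAD BDL VITA replicate 1, 4 without VAS BDL VITA replicate 1 or 2), 1 to 27 in BDL and 0 to 1 in sham VITA rats, 1764 to 2216 in vehicle rats and 679 to 1011 for the difference between the diet effects. Without slide 2 the vehicle count of 2126 was 928 and the 896 were 243. Fewer arrays enter the fits without a slide, and other causes were not tested. No gene was called for diet by operation under any alternative run, and no called value changed sign. LOC310926 was called in 29 of 33 alternatives (-0.92 to -0.72), Prkce in 13 of 33 (-0.81 to -0.12). Fits without an array kept the values normalised over 36 arrays. Alternatives without slide 1 or 2, and the slide block without replicate 5, were chosen after seeing the data, and values within slides were computed for the VITA comparison only. Genes near background, such as Prkce and Cyp26b1, are limited by signal over background.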
